A study of Rattus norvegicus with 6 samples.

Results

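The deposited table of long non-coding RNAs (lncRNAs) held 9054 distinct entries with values, and 140 of them carried an identifier starting with NR_, the prefix RefSeq uses for curated non-coding transcripts. These 140 NR RNAs were the members of the set described here. They came from 245 rows, of which 105 were exact duplicates and were dropped, and none lacked values. RNA was measured on 6 one-colour arrays, 3 of ventricular cardiomyocytes given 10 µM isoproterenol for 24 h and 3 of cardiomyocytes left untreated. Isoproterenol is an agonist of beta-adrenergic receptors, and the labels call the treated cells hypertrophic. Both groups were primary cells of Sprague-Dawley rats 1 to 3 days old, freed of most fibroblasts by letting those attach first, and held in serum-free medium for 24 h before the treatment period. The labels also mention passaged and transfected cells, which does not match that protocol. Replicates are described as biological in the series text, yet no label ties one to a litter or culture. The p-values therefore reflect only how far these samples scatter, which may be technical.

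The name long non-coding RNA covered only part of the set. By identifier, 129 of the 140 RNAs matched 116 genes in the RefSeq table of the GRCr8 assembly, and 11 matched none. Of the matched RNAs, 77 belonged to lncRNA genes, 38 were non-coding transcripts of protein-coding genes, 9 were transcribed pseudogenes, and 5 were structured RNAs. The structured RNAs were 3 ribosomal RNAs, the telomerase RNA Terc and the RNase P RNA Rpph1. Several probes read the same gene, since 24 of the RNAs belonged to 11 genes with more than 1 NR transcript.

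An lncRNA works as an RNA, for instance by scaffolding proteins on chromatin or by being transcribed next to a gene, and many lncRNA genes also carry small RNAs inside their introns or exons. A snoRNA host gene such as Gas5 is spliced, its introns release small nucleolar RNAs that guide ribosomal RNA modification, and its spliced RNA is usually removed by nonsense-mediated decay. An imprinted RNA such as H19 or Meg3 is made from the maternal allele only. Beta-adrenergic agonists raise cyclic AMP in cardiomyocytes, and one nuclear arm of that pathway acts through the factor CREB, which binds the cyclic AMP response element TGACGTCA or its shorter core TGACG.

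Sequences are from RefSeq on GRCr8. The Lnc215 gene, which was among the RNAs that rose, spans the microRNA genes Mir100, Mirlet7a-2 and Mir125b1 on its own strand, so their main mature sequences are shown with the seed, bases 2 to 8, in capitals. They lie at chr8:50798307-50798328, chr8:50805219-50805240 and chr8:50850050-50850071, all on the plus strand, and the last was read out of the Mir125b1 hairpin. No 2 of these seeds were the same.
rno-miR-100-5p: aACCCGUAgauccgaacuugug
rno-let-7a-5p: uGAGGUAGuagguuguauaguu
rno-miR-125b-5p: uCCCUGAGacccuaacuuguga

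Promoter windows of 300 bases, 250 before and 50 after the gene start, were listed for 89 of the member genes, and 4 are shown because they belong to the RNA with the largest rise, to a gene with 2 transcripts that fell, and to a snoRNA host and an imprinted RNA whose windows hold the whole response element. Capitals mark TGACGTCA or TGACG on either strand, where the core also counts inside the whole element. The window of LOC100911827 is chr1:254139649-254139948 on the minus strand, that of LOC100910558 is chr5:102021875-102022174 on the plus strand, that of Gas5 is chr13:75836713-75837012 on the plus strand, and that of Meg3 is chr6:134273806-134274105 on the plus strand.
LOC100911827: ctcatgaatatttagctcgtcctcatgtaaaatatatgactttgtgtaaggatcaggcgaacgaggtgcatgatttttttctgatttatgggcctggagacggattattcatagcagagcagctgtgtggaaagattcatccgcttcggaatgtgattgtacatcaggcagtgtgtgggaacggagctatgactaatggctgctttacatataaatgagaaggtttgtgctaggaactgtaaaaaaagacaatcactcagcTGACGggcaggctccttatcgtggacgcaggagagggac
LOC100910558: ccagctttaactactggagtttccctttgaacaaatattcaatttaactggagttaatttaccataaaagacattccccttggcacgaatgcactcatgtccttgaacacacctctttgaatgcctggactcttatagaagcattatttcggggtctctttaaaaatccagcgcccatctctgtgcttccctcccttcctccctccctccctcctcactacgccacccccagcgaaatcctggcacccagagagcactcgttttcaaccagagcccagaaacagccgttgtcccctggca
Gas5: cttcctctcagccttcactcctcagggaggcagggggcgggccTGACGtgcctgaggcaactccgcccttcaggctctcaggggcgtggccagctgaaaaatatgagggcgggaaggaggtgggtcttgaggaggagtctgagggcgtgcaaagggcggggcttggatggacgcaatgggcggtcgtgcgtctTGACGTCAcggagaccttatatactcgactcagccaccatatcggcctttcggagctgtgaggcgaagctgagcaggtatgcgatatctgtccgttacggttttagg
Meg3: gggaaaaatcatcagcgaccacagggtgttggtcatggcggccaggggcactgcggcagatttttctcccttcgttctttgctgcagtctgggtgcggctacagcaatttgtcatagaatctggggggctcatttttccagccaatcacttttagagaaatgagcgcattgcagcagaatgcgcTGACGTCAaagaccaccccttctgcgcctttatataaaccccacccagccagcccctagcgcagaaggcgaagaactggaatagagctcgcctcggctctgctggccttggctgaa
The whole element was in 3 of the 89 windows, those of Gas5, Meg3 and Lnc134, and in 1.91% of the 27457 rat windows. The core was in 35 of the 89 (39.3%) and in 22.0% of all windows. Among the 9 windows of genes with a changed NR RNA, 2 held the core, LOC100911827 and LOC102550367, and none held the whole element. None of the RNAs of Gas5, Meg3 and Lnc134 passed the test of change described next.

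Levels are given as log2 intensity relative to each array's 75th percentile, so that 0 is that percentile, and changes as the log2 difference of isoproterenol minus control with its standard error (SE). An RNA was said to have risen or fallen where limma's adjusted p, by Benjamini-Hochberg over all 8972 lncRNA probes tested, was under 0.05. The arrays lay on 2 slides, told apart by the scan times in the file headers: slide 2 held isoproterenol replicates 2 and 3, and slide 1 held isoproterenol replicate 1 and the 3 controls. Slide 2 had a higher background and dimmer signal. Of the 140 NR RNAs, 138, 81 and 91 stood well above background on isoproterenol arrays 1 to 3, against 136, 138 and 139 on control arrays 1 to 3. The slide 1 difference, isoproterenol replicate 1 minus the mean of the 3 controls, is therefore given for each NR RNA that changed. It is given for only some of the other RNAs and mRNAs, and it has no replicate on the treated side. All 10 cardiomyocyte markers were measured above background, among them Myh6 and Tnnt2, with a mean level between 6.29 and 6.98 in isoproterenol cells and between 6.16 and 6.41 in control cells. Of these 10, only Myh6 rose, by 1.23 ± 0.24 with limma's adjusted p = 0.0224, and none fell. In RNA from whole cultures, fewer cells of a type and less RNA per cell cannot be told apart.

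Of the 140 NR RNAs, all of which passed the filter on dim probes, 13 differed between the groups: 5 rose and 8 fell. Treatment and slide cannot be told apart in isoproterenol replicates 2 and 3. The other 127 did not pass the threshold, the closest of them at an adjusted p of 0.0524, and 45 of the 140 had an unadjusted p under 0.05. The share called was 9.29%, against 4.40% of all lncRNA probes, 3.57% against 2.59% for rises and 5.71% against 1.82% for falls. The larger NR share was not seen when only probes above background on all 6 arrays were tested. Of those, 18 of 81 NR RNAs were called (11 higher, 7 lower), and 874 of 3666 lncRNA probes (647 higher, 227 lower). The median change was -0.11 over all 140 NR RNAs and 0.01 over all lncRNA probes. In 58 of the 140 RNAs (41.4%) the arrays of the groups did not overlap, against 32.0% of all lncRNA probes, and this held for each of the 13 that changed. The 10th percentile of change was -1.06 and the 90th 0.87.

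Which array was left out decided the count. Without control replicate 1, 2 or 3 it was 3, 0 and 0, without isoproterenol replicate 1 it was 74, and without isoproterenol replicate 2 or 3 it was 2 and 1. With slide as a block, 2 NR RNAs passed, LOC100910558 (NR_110680) and Crnde, against 0.658% of all lncRNA probes. Slide 2 holds no control, so the change in that fit equals the slide 1 difference and rests on 1 treated array. The 13 kept their direction within slide 1, on arrays that also went into their call. Over the whole set, isoproterenol replicate 1 lay outside the control range on the side of the change in 79 of 140 RNAs (56.4%). That array also enters the change, and the share over all lncRNA probes was not counted, so no support is drawn from it. The processing moved the middle of all lncRNA probes: their median change was -0.23 after quantile normalization, -0.21 in the deposited values, -0.23 with the percentile taken over probes seen on every array, 0.08 with the median as the scale and 0.48 after normexp, a background correction. The split of called lncRNA probes was 232 higher to 163 lower, and became 137 to 245 with the percentile over probes seen on every array and 132 to 58 after normexp.

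**Figure D1:**
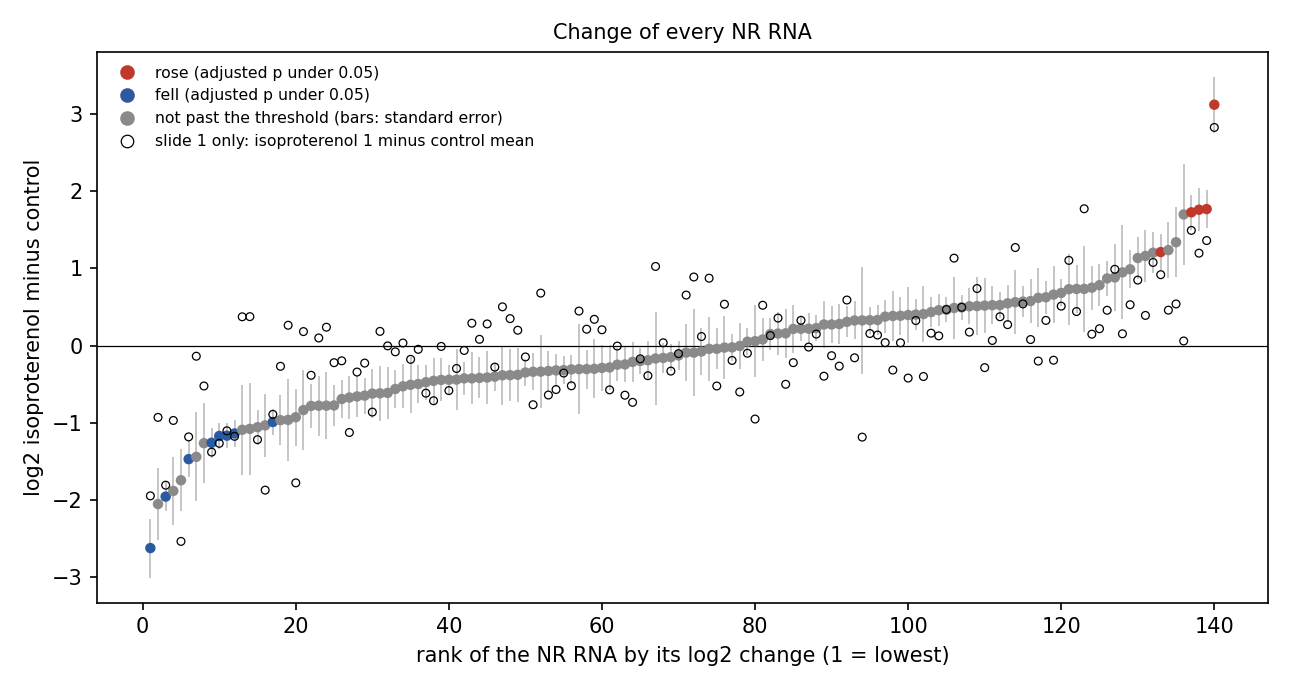
Log2 change of each of the 140 NR RNAs, isoproterenol minus control (vertical axis), ranked from the lowest to the highest change (horizontal axis). Filled points are the change over all 6 arrays with bars of 1 standard error, red for the 5 that rose, blue for the 8 that fell and grey for the other 127, and open circles are the slide 1 difference. The open circles of the coloured points lie on the same side of 0 as the points, while many grey points near 0 have open circles on the other side.

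Among lncRNA genes, 4 RNAs rose, none of which has a role known well enough to state here except through its position. LOC100911827, whose nearest protein-coding gene is Btrc, a ubiquitin ligase subunit transcribed in the opposite direction, had levels of 1.62, 2.02 and 2.10 in isoproterenol cells, against -0.42, -1.50 and -1.71 in control cells. All 3 treated arrays stood well above all 3 controls. The change was 3.12 ± 0.37 (SE, n = 3 per group), or 8.70-fold, with limma's adjusted p = 0.0129, and the slide 1 difference was 2.83. Btrc itself was at -0.41 ± 0.26 with limma's adjusted p = 0.29.

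Lnc215 overlaps the annotated gene Mir100hgl on the same strand, and it spans the 3 microRNA genes whose products are printed above. Its levels were 1.85, 2.53 and 2.39 in isoproterenol cells, against 0.60, 0.61 and 0.25 in control cells. The groups were apart by over 1 log2 unit, and the treated array on slide 1 was the lowest of the treated arrays. The change was 1.77 ± 0.24, or 3.41-fold, with limma's adjusted p = 0.0192 and a slide 1 difference of 1.36. Vof16, a second NR RNA from within the same stretch of the genome, had levels of -0.23, 0.24 and -0.32 in isoproterenol cells, against -0.92, -1.35 and -1.66 in control cells. Its arrays did not overlap either, and its change was 1.20 ± 0.26 with a slide 1 difference of 1.08, but limma's adjusted p = 0.0554 missed the threshold. No mature microRNA was among the NR RNAs.

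The other 2 lncRNA genes that rose were dim. LOC102550367 had levels of -4.17, -3.84 and -3.80 in isoproterenol cells, against -5.34, -5.91 and -5.74 in control cells. It was above background on 1 of 3 isoproterenol and 2 of 3 control arrays, so the 2 values from slide 2 were not well above background there. Its change was 1.73 ± 0.22 with limma's adjusted p = 0.0158 and a slide 1 difference of 1.49, and after normexp it was 1.02 with limma's adjusted p = 0.12. LOC100911360, next to C2cd4b, was above background on 1 of 3 isoproterenol and 3 of 3 control arrays, with levels from -4.26 to -3.60 in isoproterenol cells and from -5.44 to -5.05 in control cells. Its values on slide 2 lay below the lowest level above background there. Its change was 1.21 ± 0.24 with limma's adjusted p = 0.0434 and a slide 1 difference of 0.92. LOC100911360 passed in only 4 of the 18 settings run for it, this one included. With the deposited values its change was 0.98 with limma's adjusted p = 0.0827, and after normexp 0.94 with limma's adjusted p = 0.12.

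Both NR_110679 and NR_110680, transcripts of LOC100910558, fell. This lncRNA gene starts beside Nfib and runs away from it. Nfib encodes a nuclear factor I transcription factor. The transcript NR_110679 had levels of -3.07, -4.56 and -3.62 in isoproterenol cells, against -1.36, -0.92 and -1.10 in control cells. All treated arrays were lower than all controls, but only 1 of the 3 treated arrays was above background. Its values on slide 2 lay below the lowest level above background there, -2.77 and -3.41 on isoproterenol arrays 2 and 3, so the size of the fall was not measured on those arrays. The fitted change was -2.62 ± 0.38 with limma's adjusted p = 0.0215 and a slide 1 difference of -1.95. The transcript NR_110680 had levels of -2.94, -3.19 and -3.12 in isoproterenol cells, against -1.33, -0.98 and -1.07 in control cells. The treated arrays lay close together across both slides, and 2 of 3 were above background. NR_110680 lay under the lowest level above background on isoproterenol array 2, -2.77, and little above that on array 3, -3.41. Its change was -1.96 ± 0.19 with limma's adjusted p = 0.0071 and a slide 1 difference of -1.81. It also passed with slide as a block, at limma's adjusted p = 0.0386, where the change is that slide 1 difference. Over the settings run, the change of NR_110680 lay between -2.20 and -0.74 and that of NR_110679 between -2.96 and -0.95. The smallest sizes were those after normexp, where limma's adjusted p = 0.12 and 0.0704 missed the threshold.

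The third transcript of that gene, NR_110678, differed. It had levels of -3.35, -4.98 and -5.41 in isoproterenol cells, against -3.20, -3.77 and -3.88 in control cells, so the treated array on slide 1 lay among the controls and the slide 1 difference was 0.26. Its change of -0.96 ± 0.53 did not pass, with limma's adjusted p = 0.27. Nfib was at -0.35 ± 0.25 with limma's adjusted p = 0.35, and at 0.15 within slide 1.

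LOC100909539 and 2810025M15Rikl were brighter lncRNAs that fell. The transcript NR_110701 of LOC100909539 had levels of 1.93, 1.58 and 1.41 in isoproterenol cells, against 2.78, 3.32 and 3.24 in control cells. Its change was -1.47 ± 0.23 with limma's adjusted p = 0.0266 and a slide 1 difference of -1.18. The gene's other transcript, NR_110700, was dimmer and did not pass, at -0.09 ± 0.37 with limma's adjusted p = 0.88 and a slide 1 difference of 0.65. 2810025M15Rikl, which starts beside Rasal2 and runs away from it, had levels of 1.93, 2.16 and 2.05 in isoproterenol cells, against 3.06, 3.47 and 3.39 in control cells. In this RNA the treated array on slide 1 was the lowest of all 6. The change was -1.26 ± 0.19 with limma's adjusted p = 0.0246 and a slide 1 difference of -1.38. NR_110701 and 2810025M15Rikl were above background on all 6 arrays.

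NR_045202 and NR_045203, which matched no gene in the RefSeq table, fell by nearly the same amount. NR_045202 had levels of -1.83, -1.73 and -1.65 in isoproterenol cells, against -0.67, -0.49 and -0.54 in control cells. NR_045203 had levels of -0.85, -0.90 and -0.99 in isoproterenol cells, against 0.27, 0.32 and 0.17 in control cells. The arrays of each group lay close together, with group SDs between 0.07 and 0.09 in both RNAs. The changes were -1.17 ± 0.17 and -1.17 ± 0.16, with limma's adjusted p = 0.0208 and 0.0207, and slide 1 differences of -1.27 and -1.11. After normexp NR_045202 was at -0.73 with limma's adjusted p = 0.0824.

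**Figure D2:**
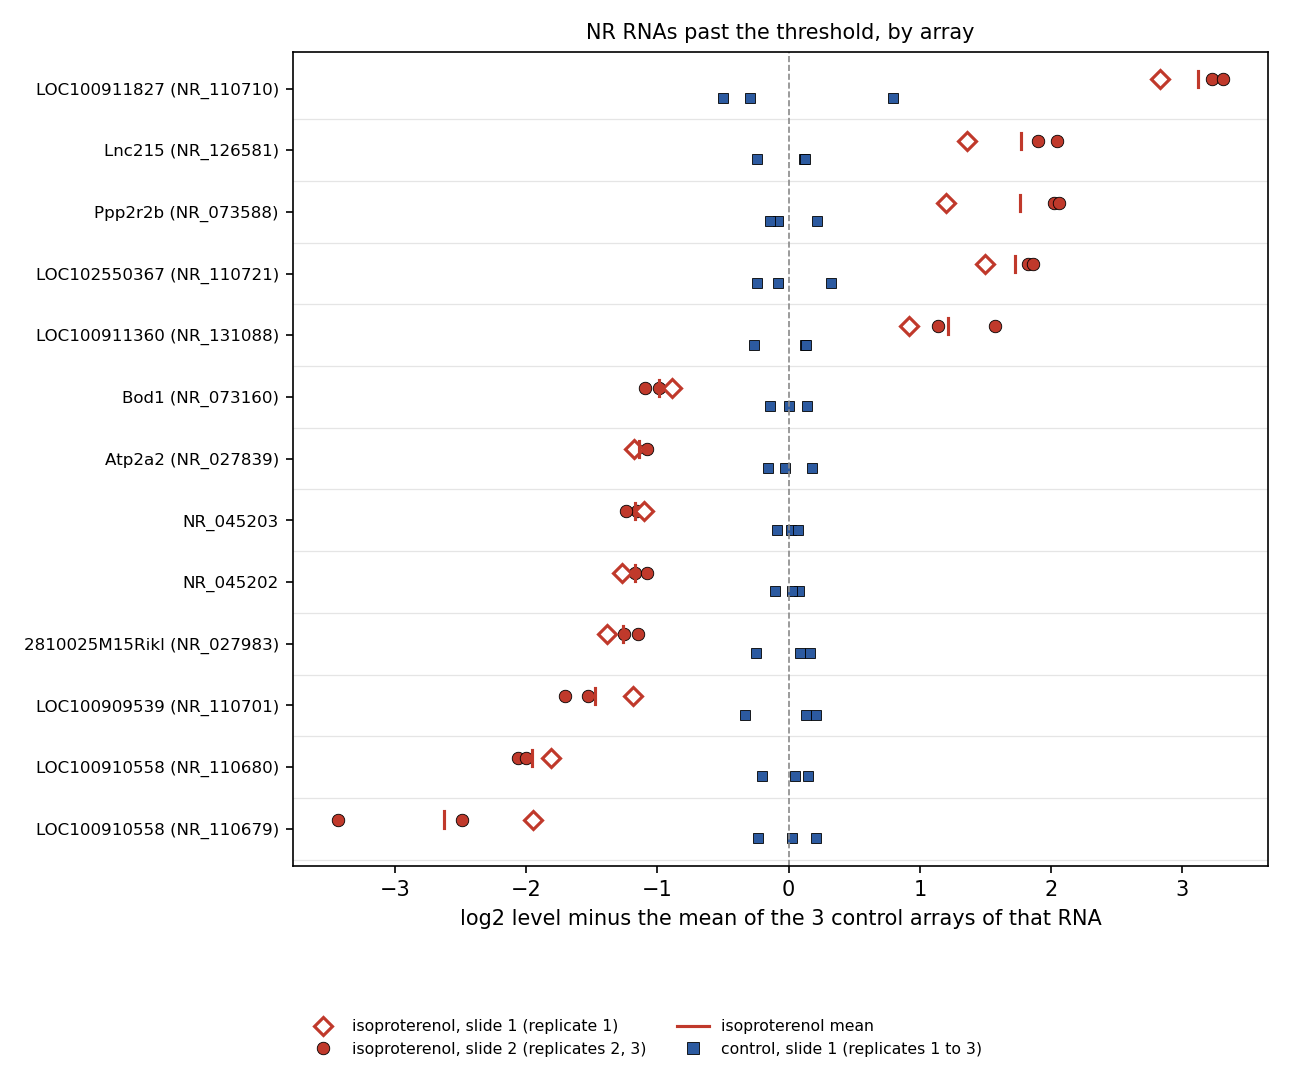
Levels of the 13 NR RNAs past the threshold on each array, as log2 level minus that RNA's control mean (horizontal axis). Red marks are isoproterenol arrays, with the open diamond for replicate 1 on slide 1, circles for replicates 2 and 3 on slide 2 and a short line for the mean, and blue squares are the 3 control arrays on slide 1. In each RNA the 3 isoproterenol arrays lie to one side of all 3 controls, and in 10 of the 13 the open diamond lies closer to the control mean than both circles do.

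Non-coding transcripts of protein-coding genes arise by splicing that skips or shifts the reading frame, and many are substrates of nonsense-mediated decay. Of the 38 in the set, 1 rose, 2 fell and 35 did not pass, where 9.29% of the NR RNAs and 4.40% of all lncRNA probes were called. The 2 that fell were transcripts of Atp2a2 and Bod1. Atp2a2 encodes SERCA2, the pump that returns calcium to the sarcoplasmic reticulum after each beat. Its non-coding transcript NR_027839 had levels of 4.63, 4.64 and 4.72 in isoproterenol cells, against 5.78, 5.65 and 5.98 in control cells. The treated arrays were within 0.1 of each other on both slides, and the change was -1.14 ± 0.17, or 2.20-fold, with limma's adjusted p = 0.0248 and a slide 1 difference of -1.18. The mRNA probe of Atp2a2 fell as well, by 0.91 ± 0.20 on the log2 scale with limma's adjusted p = 0.0331 over all mRNA genes.

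Bod1, a regulator of chromosome attachment in mitosis, had its NR_073160 transcript at -1.05, -1.15 and -1.25 in isoproterenol cells, against -0.30, -0.02 and -0.16 in control cells. Its change was -0.99 ± 0.17 with limma's adjusted p = 0.0331 and a slide 1 difference of -0.89. Ppp2r2b encodes a regulatory subunit of protein phosphatase 2A. Its transcript NR_073588 had levels of -1.52, -0.69 and -0.65 in isoproterenol cells, against -2.49, -2.79 and -2.85 in control cells. It rose by 1.76 ± 0.28, or 3.39-fold, with limma's adjusted p = 0.0265 and a slide 1 difference of 1.20, while the mRNA probe of the gene was at -0.60 ± 0.41 with limma's adjusted p = 0.32. After normexp NR_073588 was at 1.36, where limma's adjusted p = 0.0546 missed the threshold. The difference between the 2 Ppp2r2b probes was not tested.

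For 36 of these transcripts, from 29 genes, the mRNA table held a probe of the same gene, and 26 of 36 had a change of the same sign (Pearson's r = 0.55 over the 36, as a description, since the points share the 6 arrays, their scaling and in part the gene). In 6 of the 29 genes the mRNA passed the threshold over mRNA genes, of which 13.8% passed in all (8.59% higher and 5.23% lower), and the 10 NR transcripts of those genes had the sign of the mRNA in each case. Flot2, a membrane raft scaffold protein, had its mRNA at -1.67 ± 0.31 with limma's adjusted p = 0.0204, and its transcripts NR_073076 and NR_073077 were at -2.05 ± 0.47 and -1.88 ± 0.44, both with limma's adjusted p = 0.06. The Flot2 transcripts were above background on 1 of 3 isoproterenol arrays each, and their slide 1 differences were -0.93 and -0.97. Whether a probe of one table also binds the other transcript of its gene was not tested.

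Crebzf, a leucine zipper protein of the nucleus, had its mRNA at 1.07 with limma's adjusted p = 0.0164, and its 3 NR transcripts were at 0.55, 0.52 and 0.15, none past the threshold. Dcaf11, an adaptor of a ubiquitin ligase, had its mRNA at -1.58 with limma's adjusted p = 0.0220, against -0.44 and -0.78 for its 2 NR transcripts, again not past the threshold. Vegfa, the angiogenic growth factor, had its NR_105011 transcript at 0.58 and its mRNA at 0.30, neither past the threshold. The slide 1 difference of NR_105011 was 0.08.

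**Figure D3:**
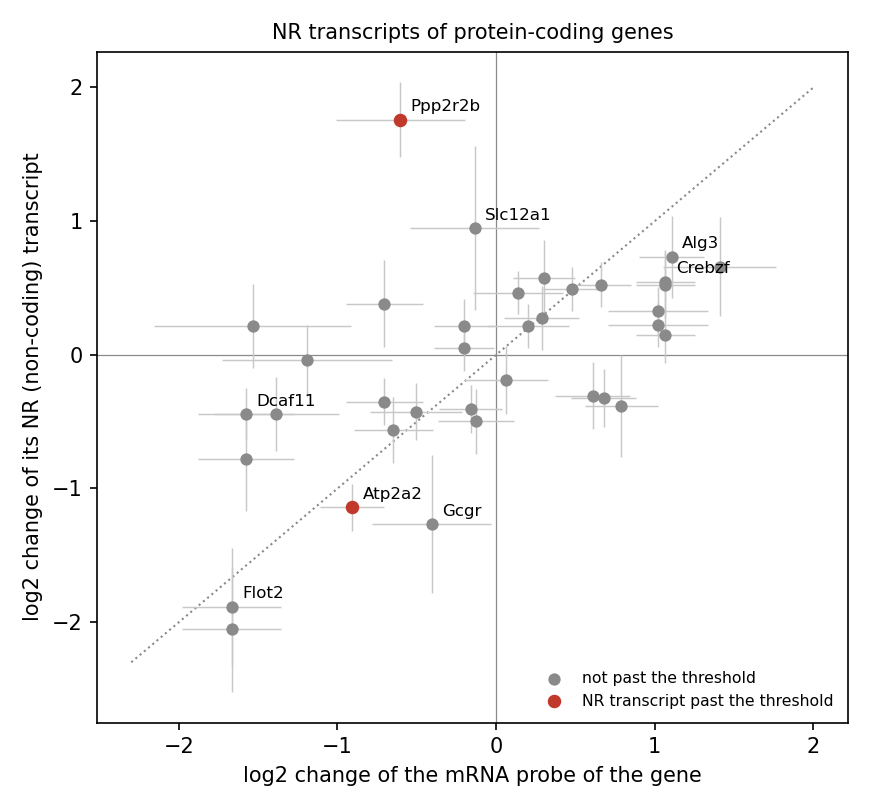
Log2 change, isoproterenol minus control, of 36 non-coding NR transcripts of protein-coding genes (vertical axis) against that of the mRNA probe of the same gene (horizontal axis), with bars of 1 standard error and a dotted line of equal change. Red points are NR transcripts past the threshold. Atp2a2 and Flot2 lie near the dotted line with both probes lower, and Ppp2r2b lies far above it.

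The set held 16 RNAs from lists of well-known non-coding RNAs, and none of them passed the threshold. The list of snoRNA host genes held 4 of them, Gas5, Snhg4, Dancr and Ftx. Ftx hosts microRNAs and is described with Xist. Gas5, known as a decoy for the glucocorticoid receptor, had levels of 5.66, 6.49 and 6.47 in isoproterenol cells, against 5.85, 6.00 and 5.95 in control cells. The slide 1 array lay below all controls and the slide 2 arrays above them, so that the change was 0.28 ± 0.26 with limma's adjusted p = 0.50, and the slide 1 difference was -0.27. Snhg4 showed the same arrangement, with 2.16, 3.43 and 3.31 in isoproterenol cells, against 2.58, 2.76 and 2.33 in control cells, a change of 0.41 ± 0.36 and a slide 1 difference of -0.40.

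Dancr, known for keeping progenitor cells undifferentiated, had levels of 1.99, 3.39 and 2.99 in isoproterenol cells, against 2.16, 1.21 and 0.98 in control cells. The groups overlapped through the slide 1 array and control replicate 1, and the change of 1.34 ± 0.45 missed the threshold with limma's adjusted p = 0.13. The slide 1 difference of Dancr was 0.54. Genes of snoRNA particle proteins, of factors that assemble the particles and of some other nucleolar proteins were measured as mRNAs. Of 20 such genes, 9 rose and none fell, against 8.59% of all mRNA genes higher and 5.23% lower, with a median change of 0.77 over the list and 0.07 over all mRNA genes. The 2 largest rises were those of Rrp9, a box C/D particle protein, at 1.80 ± 0.32 with limma's adjusted p = 0.018, and Ruvbl2, an ATPase of the assembly complex, at 1.40 ± 0.24 with limma's adjusted p = 0.0159. Their slide 1 differences were 1.25 and 1.05, and with slide as a block none of the 20 passed.

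H19 and Meg3 are imprinted RNAs expressed from the maternal allele, and both also host microRNAs, Mir675 in H19 and Mir770 in Meg3. H19 had levels of 3.06, 3.59 and 3.47 in isoproterenol cells, against 3.67, 4.10 and 3.34 in control cells. Meg3 had levels of -0.16, -0.56 and -0.48 in isoproterenol cells, against 0.14, -0.23 and -0.36 in control cells. The groups overlapped in both RNAs, and the changes were -0.33 ± 0.26 and -0.25 ± 0.22, with limma's adjusted p = 0.42 and 0.46. Their slide 1 differences were -0.64 and -0.01.

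Among 33 protein-coding imprinted genes measured, Dio3 rose, Cdkn1c fell and the other 31 did not pass, against 13.8% of all mRNA genes called, with a median change of -0.13. Dio3, the deiodinase that inactivates thyroid hormone, is expressed from the imprinted domain that also holds Meg3. It had levels of 0.04, 1.66 and 1.69 in isoproterenol cells, against -1.76, -1.72 and -1.99 in control cells, and rose by 2.96 ± 0.45 with limma's adjusted p = 0.0127 and a slide 1 difference of 1.86. Cdkn1c, a brake on the cell cycle, had levels between -0.46 and -0.28 in isoproterenol cells and between 1.02 and 1.24 in control cells, and fell by 1.53 ± 0.17 with limma's adjusted p = 0.0065. Each of these mRNAs also passed with slide as a block, where the change rests on 1 treated array.

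Xist coats the inactive X chromosome of female cells, and Ftx lies beside it in the X-inactivation centre and hosts Mir421 and Mir374b. Xist had levels of -0.64, -0.04 and -0.01 in isoproterenol cells, against -1.19, -1.10 and -1.01 in control cells. The groups did not overlap, but the change of 0.87 ± 0.23 missed the threshold with limma's adjusted p = 0.0801, and the slide 1 difference was 0.46. Ftx was at 0.78 ± 0.27 with limma's adjusted p = 0.13, above background on 1 of 3 isoproterenol arrays. The labels do not give the sex of the rats, and the share of female cells in each culture was not measured.

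Among the RNAs of nuclear bodies and chromatin, Hotairm1 had the largest difference. Hotairm1 is transcribed from the start of the HoxA cluster and is known in human myeloid cells for its part in HOXA gene activity. It had levels of -3.81, -1.48 and -1.22 in isoproterenol cells, against -3.93, -4.00 and -3.69 in control cells. Only the slide 2 arrays were high, the slide 1 array lay among the controls with a difference of 0.06, and the change of 1.70 ± 0.66 did not pass, with limma's adjusted p = 0.16. Miat, a nuclear RNA named for a human association with myocardial infarction, was at -0.42 ± 0.27 over all arrays and at 0.08 within slide 1. Fendrr, needed for heart and body wall development in mice, was at 0.39 ± 0.24, and Tug1, a chromatin-associated RNA, was at -0.24 ± 0.22. The slide 1 differences of Fendrr and Tug1 were 0.04 and -0.64. Neither of these 2 passed either.

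None of the 5 structured RNAs passed. Terc, the RNA template of telomerase, was at -0.44 ± 0.39, and Rpph1, the catalytic RNA of RNase P, was at -0.51 ± 0.36. The ribosomal RNAs Rn45s, Rn28s and Rn5-8s were at 0.46 ± 0.20, 0.52 ± 0.36 and -0.03 ± 0.41. Rn28s had levels of 8.61, 10.00 and 9.63 in isoproterenol cells, against 8.93, 8.91 and 8.85 in control cells, so the slide 1 array was the lowest and the slide 2 arrays the highest of the 6. The signs of Rn28s, Rn45s and Rn5-8s turned round under quantile normalization.

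**Figure D4:**
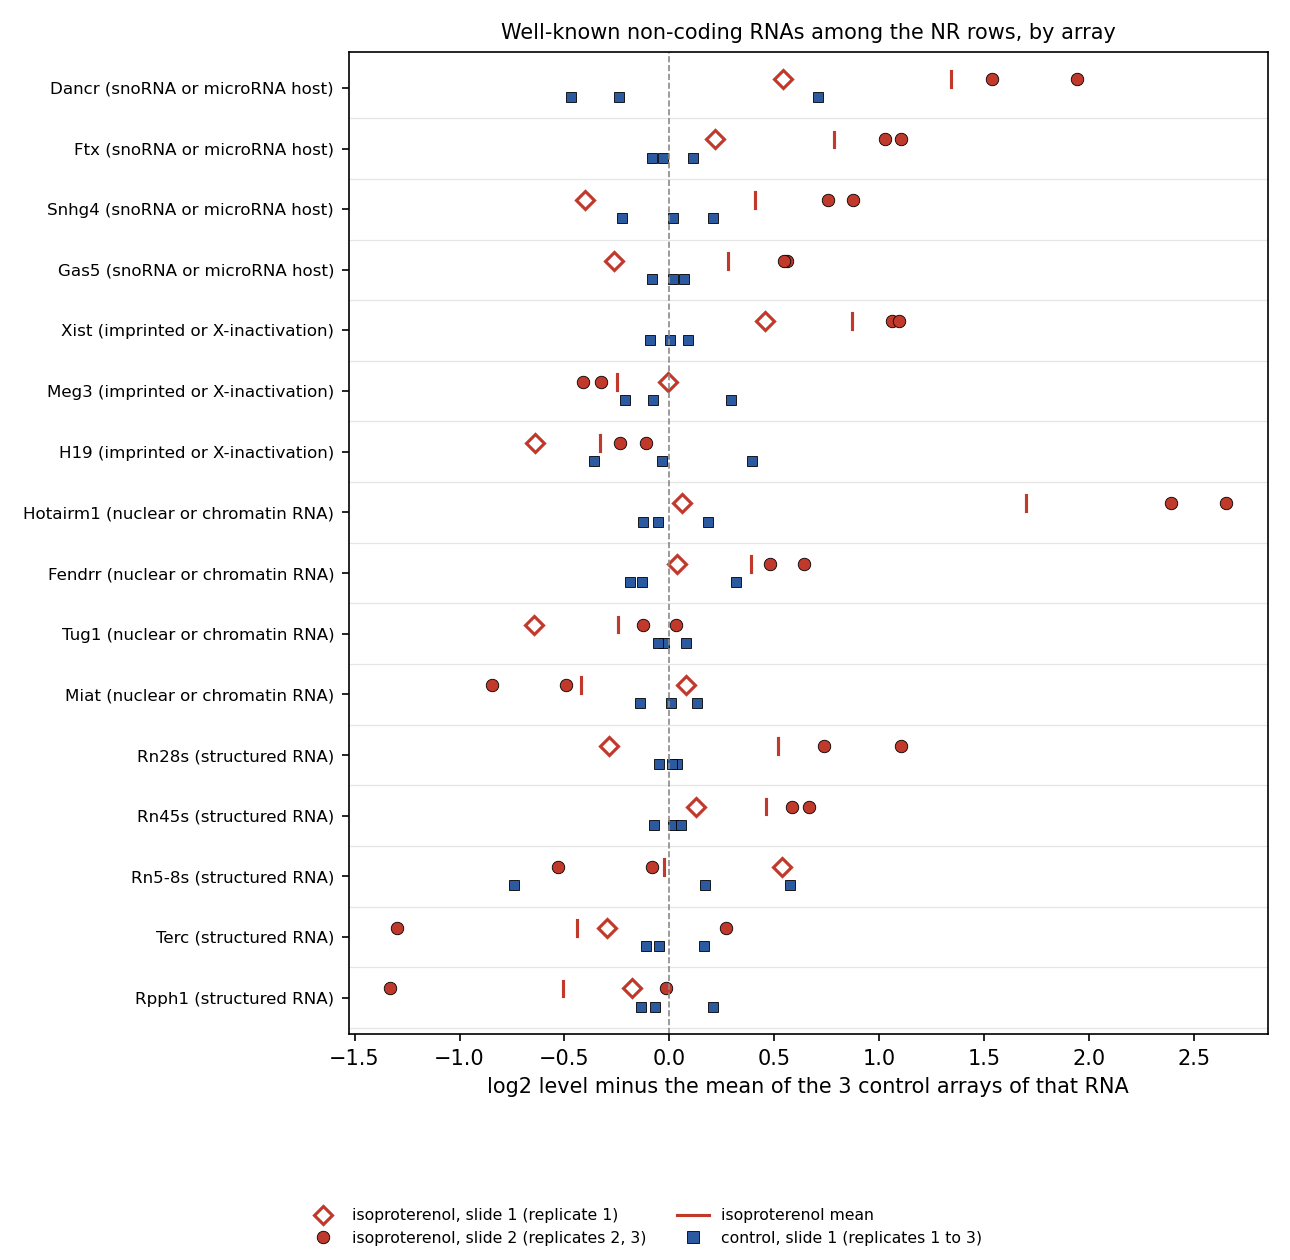
Levels of the 16 well-known non-coding RNAs of the set on each array, as log2 level minus that RNA's control mean (horizontal axis). Red marks are isoproterenol arrays, with the open diamond for replicate 1 on slide 1, circles for replicates 2 and 3 on slide 2 and a short line for the mean, and blue squares are the 3 control arrays on slide 1. In Hotairm1, Dancr, Snhg4, Gas5 and Rn28s the circles lie to the right of the controls while the open diamond lies among or to the left of them.

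A few RNAs outside those lists are given because of their position, chosen after their values were seen, as were Vof16, Flot2, Crebzf, Dcaf11 and Vegfa. Hoxb5os and Hoxaas3 are transcribed within the HoxB and HoxA clusters, which encode positional transcription factors. Hoxb5os had levels of -2.05, -1.45 and -1.27 in isoproterenol cells, against -2.68, -2.62 and -2.42 in control cells, with a change of 0.99 ± 0.25 and limma's adjusted p = 0.0730. Hoxaas3 was at 1.24 ± 0.36 with limma's adjusted p = 0.10, above background on 1 of 3 isoproterenol arrays. In both the groups did not overlap, and their slide 1 differences were 0.53 and 0.46.

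Crnde overlaps the gene of the homeobox factor Irx5. It had levels of 0.69, 2.00 and 1.94 in isoproterenol cells, against 2.37, 2.67 and 2.39 in control cells. Every treated array was lower than every control, and the slide 1 array was the lowest by over 1 log2 unit. The change was -0.93 ± 0.37 with limma's adjusted p = 0.17, and with slide as a block it was -1.78 with limma's adjusted p = 0.0353. The block change rests on that 1 slide 1 array. The Irx5 mRNA fell by 0.88 on the log2 scale with limma's adjusted p = 0.03.

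Lppos overlaps Lpp, a focal adhesion protein of muscle. It had levels of 0.32, 0.78 and 0.35 in isoproterenol cells, against 1.35, 1.84 and 1.44 in control cells. The groups did not overlap, and the change of -1.06 ± 0.23 was the closest to the threshold among those that missed it, with limma's adjusted p = 0.0524 and a slide 1 difference of -1.22. The Lpp mRNA was at 0.77 with limma's adjusted p = 0.03. RGD1562890, next to the muscle ubiquitin ligase gene Trim55, was above background on 3 of 3 control arrays and on none of the isoproterenol arrays. It had levels of -6.33, -4.75 and -5.54 in isoproterenol cells, against -4.03, -3.55 and -3.80 in control cells, and the background of slide 2 lay above its control level, so no fold is given.

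Over the whole set, the nearest protein-coding gene was in the mRNA table for 88 NR RNAs, and 49 of these pairs had changes of the same sign (Pearson's r = 0.09 over the 88, as a description, since all pairs share the 6 arrays and some share a gene). Of the 5 changed RNAs with such a neighbour, 3 had its sign. None of these neighbours, which were Btrc, Cpeb4 beside Bod1, Anapc7 beside Atp2a2 and Nfib for both LOC100910558 transcripts, passed the threshold. Among the neighbours of the listed RNAs, Cryba4, a lens crystallin gene beside Miat, fell by 0.86 ± 0.19 with limma's adjusted p = 0.03, and it was above background on 1 of 3 isoproterenol arrays and at 0.25 after normexp.

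Protein partners of non-coding RNAs were measured as mRNAs in 4 further lists. Of 18 nonsense-mediated decay genes, 2 rose and none fell, Magohb of the exon junction complex at 1.47 ± 0.36 and the endonuclease Smg6 at 1.21 ± 0.18, with limma's adjusted p = 0.0434 and 0.0124. Of 23 paraspeckle and lncRNA-binding proteins, 4 rose and none fell, with the splicing factors Srsf2 and Tra2a highest at 1.66 ± 0.33 and 1.64 ± 0.27. Of 20 Polycomb genes, 2 rose and none fell, Phf19 at 1.18 ± 0.27 and Pcgf3 at 1.15 ± 0.23. Of 12 microRNA processing genes, Xpo5, the exporter of microRNA precursors, rose by 1.34 ± 0.27, while the silencing factors Ago3 and Tnrc6b fell by 1.95 ± 0.26 and 0.93 ± 0.22. In the same fit 13.8% of all mRNA genes were called, 8.59% higher and 5.23% lower. The medians of these lists were 0.49, 0.41, 0.46 and -0.17, against 0.07 over all mRNA genes, and with slide as a block 1, 1, 0 and 1 of their members passed, against 5.42% of mRNA genes.

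Markers of other cell types differed in part between the groups. Of 10 fibroblast markers, 4 fell and 2 rose, and their mean level was between 2.22 and 2.48 in isoproterenol cells and between 2.59 and 2.64 in control cells. Of 6 erythroid markers, 2 fell and none rose, with a mean level between -0.43 and 0.13 in isoproterenol cells and between 0.21 and 0.45 in control cells. Smooth muscle (6), endothelial (8) and macrophage (7) markers had 1 rise each, with 1 fall each in the first and second of these lists. Over all mRNA genes 8.59% rose and 5.23% fell. With slide as a block, 2 fibroblast markers and 1 erythroid marker fell and none of either list rose. Only markers that passed the filter on dim probes were counted, so none could be below background on every array. Their part in the changes of the NR RNAs was not tested.

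Detection moved with the slide. Of the 140 NR RNAs, 81 were above background on all 6 arrays, with a median change of -0.01 and 9 of the 13 calls. The other 59 had a median change of -0.29 and 4 calls, and 47 of them were above background on just 1 isoproterenol array. The part of detection in these differences was not tested.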

How the data were processed

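Per the file headers, the arrays were scanned in 1 colour, and Agilent Feature Extraction 11.0.1.1 turned the scans into the deposited background-subtracted intensity values, on a linear scale. The authors also deposited log2 tables of lncRNAs and of mRNAs. On slide 1 these lie within 0.0042 of quantile-normalized log2 intensities (95th percentile of the absolute difference). On slide 2 the same measure was 0.698 and 0.659 for isoproterenol arrays 2 and 3. How the authors made them is not stated in the sources at hand.

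Table rows were joined to scanner probes by their values (distance under 0.05 and under 0.25 of the next probe's, 474 of 29734 matched rows by name instead). All 140 NR rows matched by value. Control and outlier spots were left out, spots of a probe averaged, and each array's 75th percentile of log2 intensity subtracted. Probes well above background on at least 3 of 6 arrays entered 1 limma 3.58.1 fit (R 4.3.3), with Benjamini-Hochberg adjustment over 8972 lncRNA probes and, apart, over 20000 mRNA genes (brightest probe). Normexp used median signals, because mean signals were not in the files, with an offset of 50. The fit was tested on simulated data that held no slide effect and no detection floor, so that test does not bear on either. The number of arrays limits the precision.

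Named were all changed NR RNAs, all RNAs of 5 lists, their nearest coding genes and the 2 largest changes each way of each mRNA list. Members and lists were chosen with earlier results of these data known. RefSeq names and sequences are of GRCr8, whose coordinates were used for neighbours and printed for sequences only. Replicate numbers were not used to pair samples in the main fit. Deviations of same-numbered arrays correlated at -0.0075, 0.039 and -0.020, which cannot exclude pairing, since the isoproterenol arrays lie on 2 slides.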

Additional observations from a re-analysis of the deposited data

How the results depend on the processing

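None of the 13 changed NR RNAs turned its sign under any setting run, and the cause of the shifts below was not tested unless stated. The count of changed NR RNAs was 13 and became 7 after normexp, 2 with slide as a block, 0 within slide 1 and 0 with the replicate number as a block, with a range of 0 to 74 when 1 array was left out; at an unadjusted p under 0.05 it was 45. It was 14 with the deposited values, 13 after quantile normalization, 11 with median scaling, 18 of 81 among probes seen on all arrays (11 higher, 7 lower), and 11 when lncRNA probes were fitted alone, an alternative chosen after seeing the data. The count over all lncRNA probes was 395 and became 200 after quantile normalization, 190 after normexp, 874 among the 3666 probes seen on all arrays, 59 with slide as a block, 0 within slide 1, 43 with the replicate block, 663 when adjusted together with mRNA genes, 218 when fitted alone, and 21 to 3901 when 1 array was left out. The count of mRNA genes was 2764 and became 1084 with slide as a block, 446 within slide 1, 745 with the replicate block, and 170 to 10019 when 1 array was left out. Whether the replicate numbers pair the samples cannot be told from these arrays. The median change of the NR RNAs was -0.11 and became -0.21 with the deposited values, -0.24 after quantile normalization, -0.35 with the percentile of probes seen on all arrays, 0.29 after normexp, -0.0056 among probes seen on all arrays and 0.036 both with slide as a block and within slide 1. The named RNAs and mRNAs that reversed were, but for the mRNA of Cryba4, not past the threshold to begin with. With slide as a block and within slide 1 alike, they were Snhg4 -0.40, Gas5 -0.27, Miat 0.081, Rn28s -0.29, Rn5-8s 0.54, Nfib 0.15 and Parp2 0.22. With the deposited values they were Gas5 -0.16, Rn28s -0.0071, Rn45s -0.11, Rn5-8s 0.041 and Mrpl23 -0.066, and after quantile normalization Gas5 -0.15, Rn28s -0.0070, Rn45s -0.11, Rn5-8s 0.041 and Mrpl23 -0.066. After normexp they were Miat 0.44, Rn5-8s 0.11, Terc 0.46, Btrc 0.57, Anapc7 0.31, Nfib 0.069, Zbtb37 0.39, Cryba4 0.25, Actrt3 0.46 and Parp2 0.012. Median scaling gave Rn5-8s 0.041 and Parp2 0.00047, and the percentile of probes seen on all arrays gave Mrpl23 -0.086. Leaving out 1 array put Rn5-8s between -0.40 and 0.26, Parp2 at 0.061 without isoproterenol replicate 3, and Mrpl23 at -0.0076 without isoproterenol replicate 1. With 3 arrays a group and 2 treated arrays on a slide of their own, the difference between slides cannot be told apart from the treatment in those 2 arrays.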
